A study of Mus musculus with 5 samples.

Results

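The Wnt ligands, their Frizzled receptors and the proteins that modulate or transmit the Wnt signal were followed in endothelial cells sorted from the mouse thymus. The members were chosen by gene name, with earlier results of these data known. The rule took every probe set annotated with a single symbol that begins with Wnt or Fzd and a number, or with Sfrp, Dkk or Rspo. It also took those of Lrp5, Lrp6, Ctnnb1, Axin1, Axin2, Tcf7l1, Tcf7l2, Wif1, Lgr4 and Lgr5. This gave 73 probe sets of 48 genes, out of 22690 probe sets on the array and 12393 genes named by a single symbol. They were 23 probe sets of Wnt ligands, 17 of Frizzled receptors, 4 of co-receptors and Lgr5, 16 of secreted modulators and 13 of intracellular proteins. Dkkl1 is included because its symbol begins with Dkk. Fzd10, Lgr4, Rspo3 and Rspo4 are not analysed here.

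Both groups were female C57BL/6J mice aged 6 to 8 weeks. The irradiated group was taken 4 days after sublethal total body irradiation (SL-TBI) at 550 cGy from a cesium source, with no hematopoietic rescue, and had 2 arrays. The other group was untreated (day 0) and had 3 arrays. The protocol was the same for both: depletion of CD45-positive cells, then sorting of cells without CD45 and EpCAM and with VE-cadherin, and pooling of several mice per array. The labels call the day 4 cells CD45-negative thymic stromal cells and the day 0 cells thymic endothelial cells. These names differ with the group, so a difference in the sorted cells could not be told apart from the irradiation.

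Wnt proteins are secreted lipid-modified signals that bind a Frizzled receptor together with Lrp5 or Lrp6. In the canonical branch this frees beta-catenin (Ctnnb1) from a destruction complex built on Axin, and beta-catenin then joins TCF and LEF proteins on target genes. In vessels of the brain and retina, Fzd4 with Lrp5 and Tspan12 receives the ligand Norrin and maintains the barrier. In the thymus, Wnt proteins made by epithelial and other stromal cells act on thymocytes and on the epithelium itself.

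Values are log2 GCRMA signals, 1 per probe set and array. Probe sets entered the test when 2 or more of the 5 arrays read above 4 on this scale. Signals of different probe sets cannot be ranked against each other, because probes differ in how well they bind. In these pooled RNAs, fewer cells of a type and less RNA per cell cannot be told apart. The endothelial marker list (Cdh5, Pecam1, Tek and others) had 12 of 12 genes past the filter, and the log2 of its summed signal was 14.25 to 14.42 on the day 4 arrays and 14.36 to 14.50 on the day 0 arrays. Genes of other thymic cells were also measured on these arrays. VE-cadherin itself (Cdh5, probe set 1433956_at), on which the cells were sorted, had 11.38 and 11.40 at day 4, against 11.57, 11.51 and 11.64 at day 0, and Pecam1 had 9.67 and 10.05 at day 4, against 9.70, 9.63 and 9.85 at day 0. Of the markers sorted away, Epcam still read 7.17 and 5.67 at day 4, against 7.27, 6.59 and 6.83 at day 0, and Ptprc, which encodes CD45, read 6.68 and 6.38 at day 4, against 6.86, 6.08 and 6.63 at day 0. The summed signal of 12 thymocyte genes was 7.86 to 7.87 at day 4 and 9.20 to 10.11 at day 0, with Rag2 and Ptcra under the filter. By their probe set of highest mean, 5 thymocyte genes passed the test, all lower at day 4, beside 1.68% of all genes. The sum of 15 myeloid genes was 11.93 to 12.31 at day 4 and 10.21 to 11.24 at day 0, with Itgam under the filter. Myeloid genes passed the test in both directions: 3 were higher at day 4 (Cd14, Cd163 and Fcgr1, found on monocytes and macrophages) and 2 lower (S100a8 and S100a9, abundant in neutrophils), with log2 changes from -2.93 for S100a8 to 2.89 for Cd163. For 11 thymic epithelial genes, with Foxn1 under the filter, the sum was 10.39 to 11.74 at day 4 and 11.50 to 12.32 at day 0. For 9 fibroblast genes it was 12.27 to 12.73 and 12.29 to 12.51, and for 10 pericyte and smooth muscle genes 12.91 to 12.96 and 13.03 to 13.15, with every gene of both lists past the filter. The thymocyte and pericyte sums were lower, and the myeloid sums higher, on both day 4 arrays than on every day 0 array. No listed marker is at 0, since the deposited scale has no 0.

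**Figure D1:**
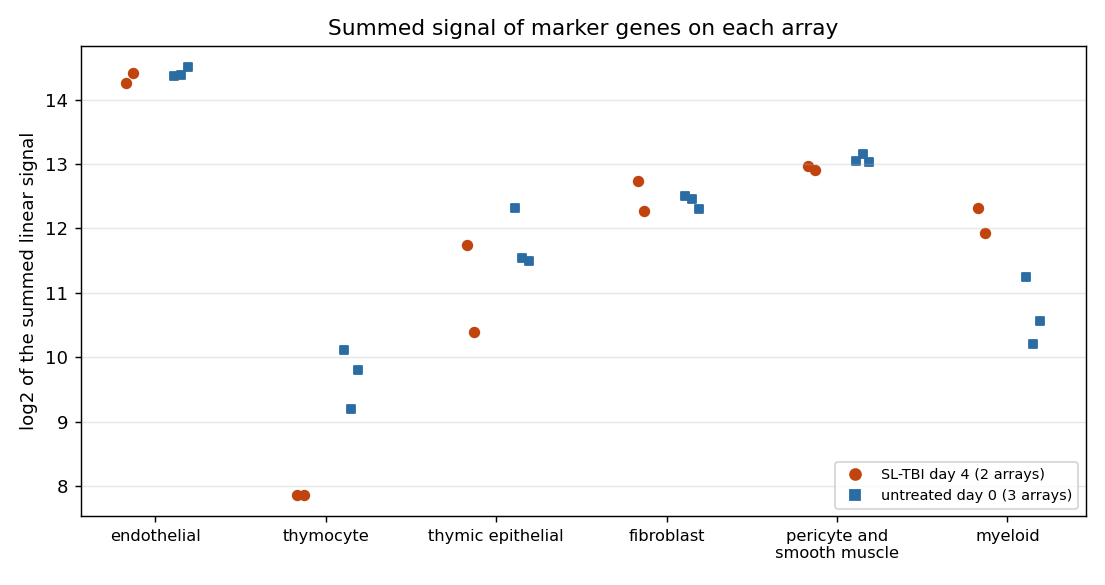
Log2 of the summed linear signal of 6 lists of marker genes, with a circle for each of the 2 SL-TBI day 4 arrays and a square for each of the 3 untreated day 0 arrays. The thymocyte sums lay at 7.86 to 7.87 at day 4 against 9.20 to 10.11 at day 0. The pericyte sums were also lower, and the myeloid sums higher, on both day 4 arrays than on every day 0 array. The endothelial, thymic epithelial and fibroblast sums of the groups overlapped.

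Most members did not pass the level filter on these arrays, and those that did were mainly receptors and signal transducers. Passing the filter does not by itself show a signal above background. Of the 73 probe sets, 31 (42.5%), standing for 23 genes, passed the level filter, beside 66.6% of all 22626 probe sets other than controls. By role, 4 of 23 ligand probe sets passed (17.4%), 8 of 17 Frizzled probe sets (47.1%), 3 of 4 of the co-receptors and Lgr5, 7 of 16 of the secreted modulators (43.8%) and 9 of 13 of the intracellular proteins (69.2%). Of the 42 that did not pass, 41 were above 4 on no array. Next to the filter, a Tcf7l2 probe set (1429427_s_at) with a single array above 4, at 4.27, stayed out, and Sfrp5 (1423023_at), at 4.07 to 4.11 on all 5 arrays, passed.

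**Figure D2:**
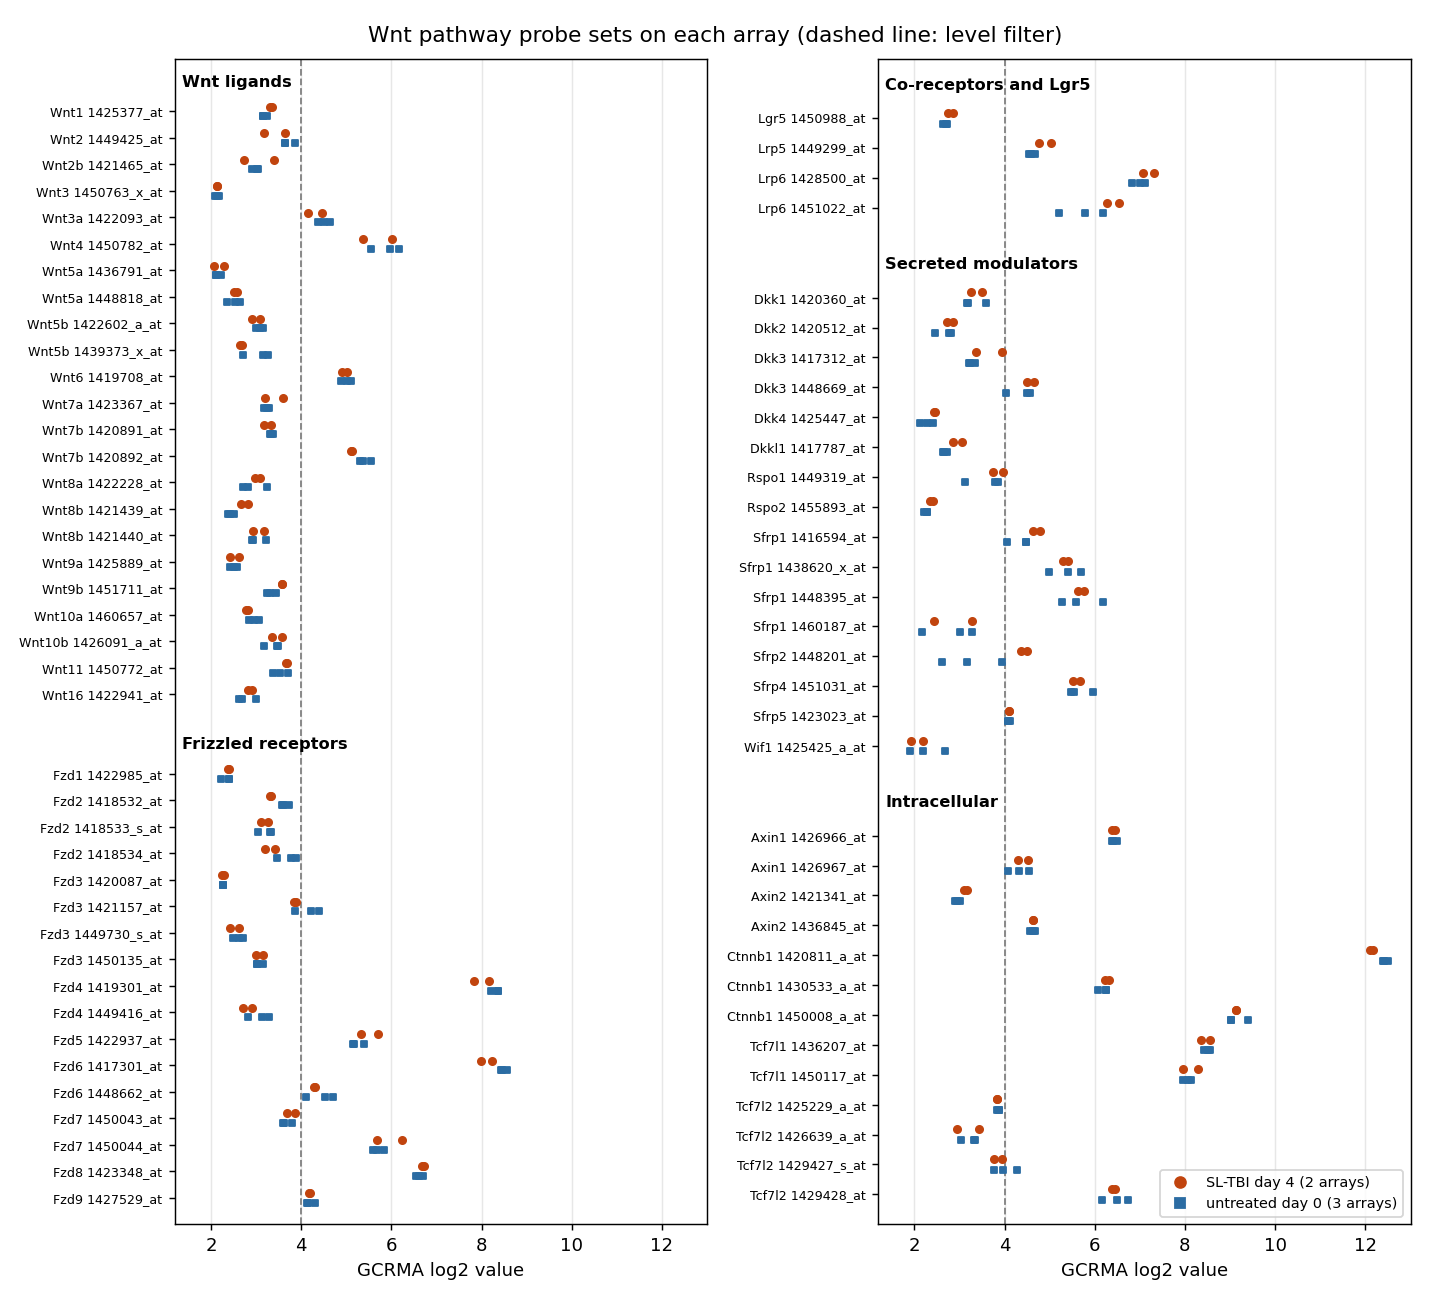
GCRMA log2 value of all 73 probe sets by role, with a circle for each of the 2 SL-TBI day 4 arrays and a square just below for each of the 3 untreated day 0 arrays. The dashed line is the level filter at 4; 19 of 23 ligand probe sets lie to its left on every array, whereas Fzd4, Fzd6, Ctnnb1 and Tcf7l1 each have a probe set well to its right in both groups.

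No member passed the test between the groups. With limma's moderated test and Benjamini-Hochberg adjustment over 15065 probe sets, 0 of 31 members had an adjusted p under 0.05, beside 1.39% of all probe sets (210), of which 0.717% were higher and 0.677% lower at day 4. Before adjustment, 5 of 31 members had a p under 0.05, beside 19.4% of all probe sets. These were 2 with higher means at day 4, Sfrp2 and Lrp5 (10.1% of all), and 3 with lower ones, Fzd6, Ctnnb1 and Wnt7b (9.34% of all). Without day 0 replicate 1 the count of members with an unadjusted limma p under 0.05 was 4 of 30. Without day 0 replicate 2 it was 2 of 30. The share of all probe sets at this p was not computed for these fits, so the lower counts are no result about the members. They are also not the range over all left-out arrays. Leaving out a day 4 array leaves a single array in that group, so no count is given for it. The 2 groups did not overlap for 8 of 31 members, beside 39.6% of all, 4 of them above (18.9% of all) and 4 below (20.7% of all). The median log2 change over the 31 members was -0.0045, with 15 positive and 16 negative values, and that over all probe sets tested was -0.0044. A change of over 1.5-fold in either direction was seen for 6.45% of members (Sfrp2 and an Lrp6 probe set) and 6.66% of all. Sfrp2 is in each of the member counts over all 5 arrays, although all its day 0 arrays were under the filter and its fold is therefore not a measured one. Likewise, Fzd3 is among the 16 negative values, although it was tested only because of its day 0 values. With 2 and 3 arrays the intervals are wide, and a missed threshold is no sign of equal levels.

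**Figure D3:**
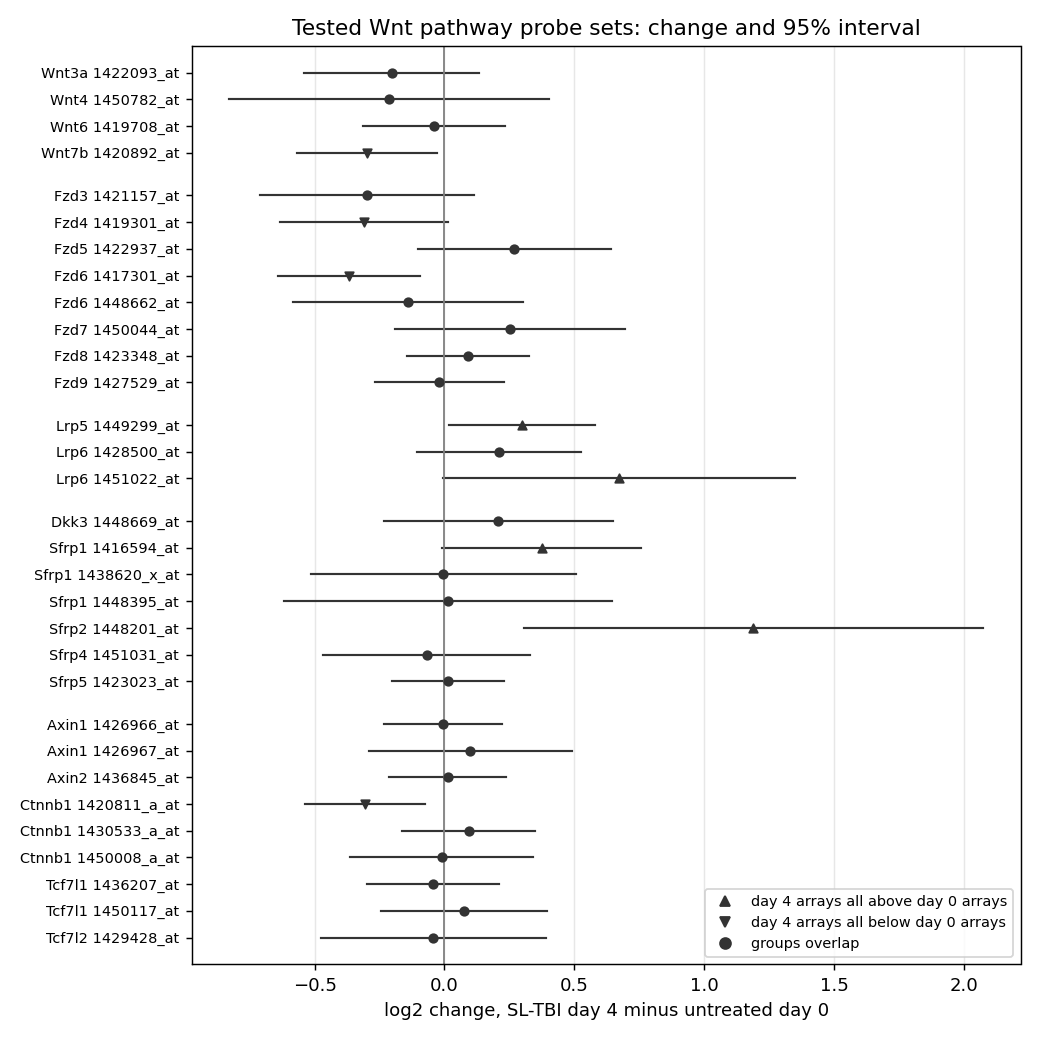
Log2 change, SL-TBI day 4 minus untreated day 0, of the 31 members past the level filter, with the 95% interval of limma as a line; upward and downward triangles mark members whose day 4 arrays all lie above or below the day 0 arrays. Changes ran from -0.37 for Fzd6 to 1.19 for Sfrp2, and 26 of the 31 intervals include 0. All day 0 arrays of Sfrp2 were under the level filter, so its value rests on background.

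Among the 19 ligand genes, Wnt3a, Wnt4, Wnt6 and Wnt7b were the ones with a probe set past the filter. Wnt4, a ligand made by thymic epithelium, had values of 6.01 and 5.37 on the day 4 arrays, against 6.18, 5.98 and 5.55 on the day 0 arrays. The groups overlapped, and the difference of -0.21 had a 95% interval of -0.83 to 0.40 (limma adjusted p = 0.671). The 5 arrays fell in the same order by Wnt4 as by the summed signal of the 11 thymic epithelial genes, whose values were 11.74 and 10.39 at day 4, with 12.32, 11.54 and 11.50 at day 0. The part of epithelial RNA in the Wnt4 signal was not tested.

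Wnt7b, a ligand that acts on brain endothelium, had values of 5.10 and 5.13 at day 4, against 5.56, 5.38 and 5.31 at day 0. Both day 4 arrays lay below all day 0 arrays, but the log2 difference of -0.30 ± 0.11 (SE) did not pass (limma adjusted p = 0.220). A second Wnt7b probe set was at 3.18 to 3.37 on all 5 arrays. Wnt6 had 5.03 and 4.90 at day 4, against 5.11, 5.03 and 4.88 at day 0, and Wnt3a had 4.15 and 4.46 at day 4, against 4.38, 4.64 and 4.51 at day 0. Both overlapped between the groups. All 4 ligand differences were negative, between -0.30 and -0.04, beside 7652 negative values among all 15065 probe sets tested, and none of the 4 passed.

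The other 15 ligand genes lay between 2.07 and 3.87 on every array. They include Wnt1, Wnt3, Wnt8a and Wnt10b, which typically signal through beta-catenin, and Wnt5a, Wnt5b and Wnt11, known mainly from the branches that do not use it. Wnt2 had the array closest to the filter of these, at 3.18 and 3.64 at day 4 against 3.64, 3.87 and 3.65 at day 0. Wnt5a, with 2 probe sets, was at 2.07 to 2.58 at day 4 and 2.11 to 2.65 at day 0. These values are at background and carry no direction.

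The Frizzled receptors are the Wnt-binding proteins of the cell surface, and 7 of 9 Frizzled genes had a probe set past the filter: Fzd3 to Fzd9. Fzd4, the Norrin and Wnt receptor of vessels, had values of 7.84 and 8.16 at day 4, against 8.36, 8.37 and 8.20 at day 0. Fzd6, which works in planar cell polarity, had 8.00 and 8.23 at day 4, against 8.45, 8.55 and 8.44 at day 0. In both receptors the day 4 arrays lay below every day 0 array.

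The Fzd6 difference was -0.37 ± 0.11 (SE), 0.775 times the day 0 signal, and it did not pass (limma adjusted p = 0.163). The Fzd4 difference was -0.31 ± 0.13 (SE), with a limma adjusted p of 0.270 and a 95% interval of -0.63 to 0.01. Without day 4 replicate 1 the Fzd4 value was -0.15, and without day 4 replicate 2 it was -0.47. Fzd6 has a second tested probe set, which overlapped between the groups at 4.32 and 4.29 at day 4 against 4.11, 4.70 and 4.53 at day 0 (difference -0.14). The second Fzd4 probe set was at background, at 2.92 and 2.72 at day 4 against 2.82, 3.13 and 3.28 at day 0. Other markers moved alongside: Cdh5 was also lower on both day 4 arrays with probe set 1433956_at (difference -0.18, limma adjusted p = 0.337) but overlapped with 1422047_at (-0.03), the thymocyte and pericyte sums were lower and the myeloid sum higher, and the summed endothelial signal overlapped. Their part in the Fzd4 and Fzd6 values was not tested.

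Fzd5 and Fzd7 both had a higher mean at day 4, with overlapping groups. Fzd5 had 5.71 and 5.32 at day 4, against 5.18, 5.41 and 5.15 at day 0, and Fzd7 had 6.23 and 5.67 at day 4, against 5.68, 5.83 and 5.58 at day 0. In each of these receptors day 4 replicate 1 was the highest of the 5 arrays. Fzd8 stayed within 6.68 to 6.73 at day 4 and 6.54 to 6.69 at day 0, a difference of 0.09 with a 95% interval of -0.14 to 0.33. Fzd9 differed by -0.02. Fzd3 passed the filter only through 2 day 0 arrays, with 3.88 and 3.84 at day 4 against 4.22, 4.39 and 3.85 at day 0, so its difference of -0.30 rests on values around the filter. Fzd1 and Fzd2 were under 4 on every array.

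The co-receptors Lrp5 and Lrp6, which join Frizzled to form the canonical receptor, had positive differences, unlike Fzd4 and Fzd6. The 8 tested Frizzled probe sets went both ways, with 3 positive (Fzd5, Fzd7 and Fzd8) and 5 negative, and none passed. Among the negative ones, Fzd3 was tested only because of its day 0 values. Lrp5 had 4.77 and 5.03 at day 4, against 4.59, 4.55 and 4.67 at day 0. The day 4 arrays lay above the day 0 arrays, with a difference of 0.30 ± 0.12 (SE, limma adjusted p = 0.233), which was 0.17 without day 4 replicate 2. Lrp6 was measured by 2 probe sets. The one numbered 1451022_at had 6.27 and 6.53 at day 4, against 5.22, 5.79 and 6.18 at day 0, a difference of 0.67 ± 0.28 (SE, limma adjusted p = 0.261). The other, 1428500_at, had 7.08 and 7.30 at day 4, against 7.01, 6.82 and 7.10 at day 0. These overlapped, with a difference of 0.21, so both probe sets gave a positive value and neither passed. Without day 0 replicate 1 the value of 1451022_at was 0.41, and that of 1428500_at was 0.10 and 0.32 when day 4 replicate 2 or day 4 replicate 1 was left out, and 0.13 when day 0 replicate 2 was. For 1451022_at the day 0 arrays alone spanned 5.22 to 6.18, more than the difference between the group means. Lgr5, a receptor for R-spondins and a beta-catenin target in stem cells, was at 2.74 and 2.87 at day 4 and at 2.63 to 2.73 at day 0, under the filter on all arrays.

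**Figure D4:**
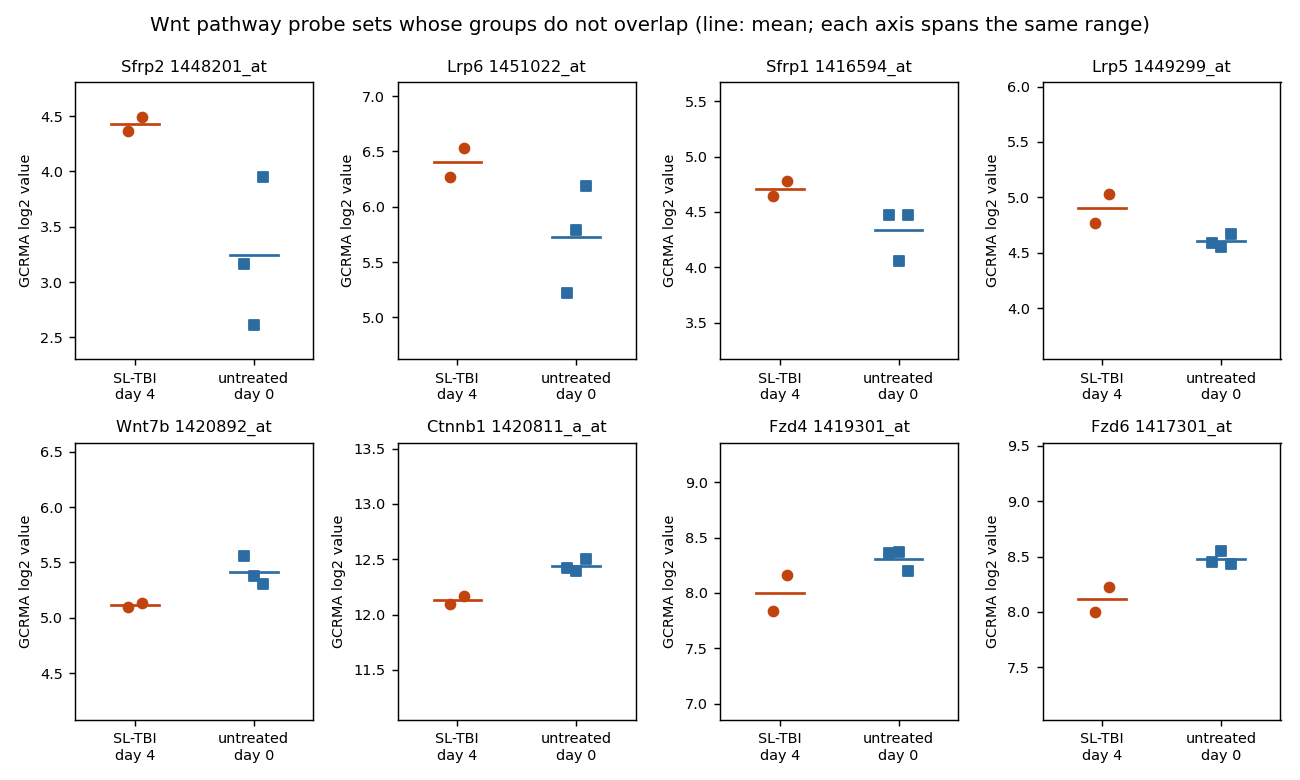
GCRMA log2 values of the 8 members whose SL-TBI day 4 arrays (circles, left, 2 arrays) all lie above or all below the untreated day 0 arrays (squares, right, 3 arrays), with a line at each group mean and axes of equal span. The gap between groups is widest for Sfrp2, whose day 0 squares at 2.62 to 3.95 are also the most spread out. These squares all lie under the level filter, so Sfrp2 was tested only because of its day 4 values and its gap rests on background.

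Secreted modulators bind Wnt proteins or their receptors outside the cell. Sfrp2, a secreted Frizzled-related protein made by mesenchymal cells, had the member set's highest difference. It had 4.37 and 4.49 at day 4, against 3.17, 2.62 and 3.95 at day 0. The day 4 arrays lay above all day 0 arrays, and the difference was 1.19 ± 0.36 (SE, 2.28-fold, limma adjusted p = 0.164). All day 0 arrays were under the filter, so Sfrp2 was tested only because of its day 4 values and its fold rests on background. The summed fibroblast signals overlapped between the groups, and the part of other cells in the Sfrp2 signal was not tested.

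Sfrp1, another member of that family, was tested with 3 probe sets that did not give the same picture. Probe set 1416594_at had 4.64 and 4.78 at day 4, against 4.48, 4.06 and 4.47 at day 0, with no overlap and a difference of 0.37 ± 0.16 (SE, limma adjusted p = 0.264), or 0.24 without day 0 replicate 2. Probe set 1438620_x_at had 5.41 and 5.30 at day 4, against 5.41, 4.98 and 5.69 at day 0. Probe set 1448395_at had 5.64 and 5.76 at day 4, against 5.59, 5.28 and 6.19 at day 0. These last probe sets overlapped between the groups, with differences of -0.0045 and 0.013, and another, 1460187_at, was at background at 2.44 to 3.27 on the day 4 arrays and 2.17 to 3.28 on the day 0 arrays.

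Sfrp4 averaged 5.59 ± 0.10 on the 2 day 4 arrays and 5.66 ± 0.25 on the 3 day 0 arrays (SD). Sfrp5 differed by 0.01, and Dkk3, a divergent member of the Dickkopf family, by 0.21 with overlapping groups. Dkk1, Dkk2 and Dkk4, which block Lrp5 and Lrp6 or modulate them, Wif1, which binds Wnt proteins, Dkkl1, and the R-spondins Rspo1 and Rspo2, which strengthen Wnt signals, were under 4 on every array. Rspo1 came closest, at 3.97 and 3.74 at day 4 against 3.86, 3.79 and 3.13 at day 0.

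Inside the cell, beta-catenin was measured by 3 probe sets, all above the filter on every array. Probe set 1420811_a_at had 12.10 and 12.17 at day 4, against 12.42, 12.39 and 12.51 at day 0. Both day 4 arrays lay below the day 0 arrays, and the difference of -0.31 ± 0.095 (SE), 0.809 times the day 0 signal, did not pass (limma adjusted p = 0.169). The other beta-catenin probe sets overlapped between the groups: 1450008_a_at had 9.13 on both day 4 arrays against 9.01, 9.02 and 9.40 at day 0, and 1430533_a_at had 6.23 and 6.32 at day 4 against 6.06, 6.24 and 6.24 at day 0. Their differences were -0.01 and 0.09. The protein is controlled by its breakdown, and the protein itself was not measured here. It is also part of the junctions between endothelial cells.

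Axin1, the scaffold of the destruction complex, had 6.46 and 6.38 at day 4, against 6.48, 6.38 and 6.41 at day 0, with its probe set 1426966_at, a difference of -0.0054 (95% interval -0.23 to 0.22). With 1426967_at it had 4.30 and 4.52 at day 4, against 4.54, 4.32 and 4.07 at day 0, a difference of 0.10. Both overlapped between the groups. Axin2, the scaffold that beta-catenin itself induces and a common readout of the pathway, had 4.64 and 4.64 at day 4, against 4.64, 4.56 and 4.68 at day 0. The groups overlapped, with a difference of 0.013 and a 95% interval of -0.21 to 0.24 (limma adjusted p = 0.955). Both day 4 arrays and day 0 replicate 1 held the identical deposited value, so that little measured spread stands behind this interval. Such a repeated value may be an estimate of background, which was not tested. The interval therefore does not show that Axin2 was unchanged. A difference so close to 0 has no direction: it was -0.0032 after quantile normalization and -0.017 after median centring, which shifts all probe sets alike. The second Axin2 probe set was at background, with 3.09 and 3.16 at day 4 against 2.90, 3.01 and 2.94 at day 0.

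Of the DNA-binding partners of beta-catenin, Tcf7l1 and Tcf7l2 had probe sets past the filter. Tcf7l1, mostly a repressor, had 8.36 and 8.55 at day 4 against 8.51, 8.55 and 8.43 at day 0 with one probe set, and 7.96 and 8.29 at day 4 against 7.96, 8.13 and 8.06 at day 0 with the other. Both overlapped between the groups, with differences of -0.04 and 0.07. Tcf7l2 had 6.46 and 6.38 at day 4 against 6.15, 6.50 and 6.73 at day 0, a difference of -0.04, and its 3 other probe sets did not pass the filter. Lef1, the partner found in thymocytes and in brain vessels, was at 2.22 and 2.13 at day 4 and 2.08 to 2.47 at day 0.

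The rest of the pathway was read from 7 lists of 121 further genes, of which 105 had a probe set and 84 passed the filter, each gene taken by its probe set of highest mean. With limma, 0 of these 84 genes passed, beside 1.68% of all 8940 genes read in this way. An unadjusted p under 0.05 was found for 10 of 84 genes (7 higher and 3 lower), beside 20.1% of all genes. The lowest adjusted p among the 84, read in this way, was 0.0943, that of Fosl1. A Slc2a1 probe set that is not the gene's highest, 1426600_at, had a limma adjusted p of 0.0918. Fosl1 depended on single arrays: its log2 change of 1.64 was 1.0 without day 4 replicate 1 (limma adjusted p = 0.148) and 2.28 without day 4 replicate 2 (adjusted p = 0.034), the one call in a fit that left out an array.

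**Figure D5:**
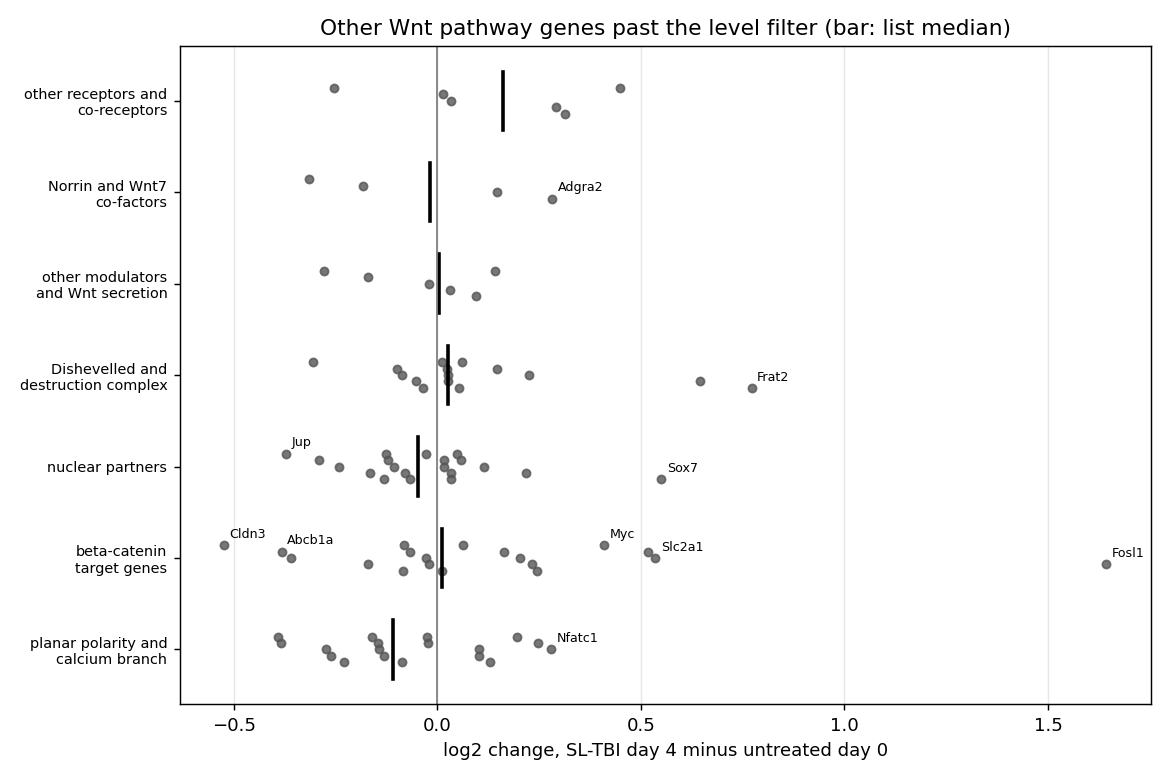
Log2 change, SL-TBI day 4 minus untreated day 0, of Wnt pathway genes past the level filter in 7 lists, each gene as a dot by its probe set of highest mean, with a bar at the list median; names mark genes with an unadjusted limma p under 0.05. List medians lay between -0.11 and 0.16, and Fosl1 was the farthest from 0 at 1.64.

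In the machinery that makes Wnt proteins, Wls, which carries them to the surface, had 3 probe sets past the filter. Probe set 1423825_at had 5.83 and 5.89 at day 4, against 6.28, 6.26 and 6.20 at day 0. Its groups did not overlap, but the difference of -0.38 ± 0.091 (SE) did not pass (limma adjusted p = 0.111), and the other Wls probe sets gave 0.03 and 0.07 with overlapping groups. Porcn, which attaches the lipid, had 5.28 and 5.23 at day 4, against 5.17, 5.26 and 5.05 at day 0. Notum, which removes it, had 4.98 and 4.96 at day 4, against 4.95, 4.98 and 5.06 at day 0. Both overlapped between the groups, with differences of 0.10 and -0.02. Frzb, a further Frizzled-related protein, was at background on both its probe sets.

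Of the partners of Fzd4, Tspan12 had 7.82 and 7.42 at day 4, against 7.83, 7.97 and 8.00 at day 0. The day 4 arrays were the lower ones, with a difference of -0.31 ± 0.14 (SE, limma adjusted p = 0.294), -0.11 without day 4 replicate 2 and -0.52 without day 4 replicate 1. Adgra2, the Wnt7 co-receptor of brain endothelium also known as Gpr124, had 5.65 and 5.66 at day 4, against 5.45, 5.38 and 5.29 at day 0. Its difference was 0.28 ± 0.097 (SE) and did not pass (limma adjusted p = 0.196). Reck, which works with Adgra2, differed by -0.18, and the Norrin gene Ndp was at background, at 2.07 to 2.37 on the day 4 arrays and 2.10 to 2.19 on the day 0 arrays.

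Of 31 textbook targets of beta-catenin, 27 had a probe set, 19 passed the filter and 0 passed the test. The median change of these 19 was 0.013, and 5 had an unadjusted limma p under 0.05, 3 higher and 2 lower, beside 20.1% of all genes. Nkd1, Sp5, Rnf43, Tnfrsf19 and Lef1, feedback and target genes often used as readouts, were under the filter. Nkd1 was at 3.19 and 3.22 at day 4, against 3.14, 3.08 and 2.75 at day 0. Apcdd1, a Wnt inhibitor induced in brain vessels, differed by 0.04, -0.17 and -0.35 on its 3 tested probe sets, and Nkd2 by 0.20. Fosl1, an AP-1 subunit that answers to many signals, had 7.33 and 6.05 at day 4, against 4.88, 5.27 and 4.99 at day 0. Both day 4 arrays were above all day 0 arrays, while the day 4 arrays spread further from each other than the day 0 arrays did. Fosl1, Reck, Apcdd1 and Nkd2 were named after their values were seen.

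The remaining lists likewise held no call. The median was 0.03 for 15 genes of Dishevelled and the destruction complex, -0.05 for 20 nuclear partners and -0.11 for 18 genes of planar polarity and calcium signalling. It was -0.02 for 4 Norrin and Wnt7 co-factors, 0.16 for 6 other receptors and co-receptors, and 0.0055 for 6 modulators and Wnt secretion genes.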

How the data were processed

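Affymetrix mouse expression arrays of 5 pooled samples from the endothelial sort were compared. The deposited values are log2 signals that the authors computed by GCRMA (per the submitters' processing notes, which name no version). This method corrects background by probe sequence and normalizes arrays to a common distribution, which hides changes shared by most genes, and its low values are estimates of background. Arrays had medians of 5.26 to 5.30. The platform annotation gave 1 symbol to 20380 probe sets. All 73 member probe sets matched the RefSeq gene table by Entrez identifier, and 0 symbols changed. Coordinates are not given because the array's build is not named.

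Probe sets above log2 4 on at least 2 arrays (15065) were fitted with lmFit and eBayes of limma 3.58.1 (R 4.3.3), two-sided, default settings, no covariate, with calls at a Benjamini-Hochberg adjusted p under 0.05. The log2 change is day 4 minus day 0. The small number of arrays limits precision (3 residual and 3.09 prior degrees of freedom). Arrays are pools of mice, and whether the pools were independent is not stated, so p-values measure the spread between these arrays, which may be technical. The fit was tested on simulated data. Figures were drawn with matplotlib 3.10.9.

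Members, lists and tests were chosen with earlier results of these data known. Values on every array are given for members called, the 10 with the highest mean, the 5 largest differences in each direction with groups apart, genes with several tested probe sets, and Axin2, Ctnnb1, Fzd4, Lrp5, Lrp6, Lgr4 and Lgr5; Cdh5, Pecam1, Epcam and Ptprc mark the sort. Named whatever their values were Lef1, Tcf7, Tspan12, Ndp, Adgra2, Wls, Porcn, Notum, Nkd1 and Frzb. Tcf7 is not analysed here. Other members are described by range; where their arrays are given, they were chosen after their values were seen. Alternatives were quantile normalization, median centring, no level filter or one at 6, 1 probe set per gene, an intensity trend with robust fitting, weights per array, blocking on the replicate number, thresholds of 0.1 and 0.01, and leaving out each array.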

Additional observations from a re-analysis of the deposited data

How the results depend on the processing

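Member calls stayed at 0 under every alternative run except the replicate number as a block, which called 2, Lrp6 1451022_at (0.90) and Sfrp2 (1.54). Sfrp2 had entered the test only through its day 4 arrays, so that call is against background. The block takes no contrast from the unpaired day 0 replicate 3; without that array and with no block the values were the same and neither was called (adjusted p = 0.206 and 0.0963). Sfrp2 was not tested without either day 4 array, since it then missed the filter. The block also called 1 further pathway gene, Csnk1g1 (0.87). The numbers are not known to pair the arrays. With only 2 shared numbers, deviations of same-numbered arrays correlated at 0.20 and 0.084 across probe sets. The deviations of the 2 day 4 arrays mirror each other, so swapped numbers must give -0.20 and -0.084. These values therefore cannot decide the pairing. Pathway calls by the probe set of highest mean were 1 (Fosl1) at a limma adjusted p under 0.1. Slc2a1 1426600_at, not the highest of its gene, was also under 0.1. The members' median was -0.035 after median centring, as was that of all probe sets, 0.021 with no level filter, 0.038 with the replicate block, and -0.015 to 0.038 without one array. Of 572 values of 47 named probe sets under alternatives, 534 kept sign and call, and 34 changed sign, all in probe sets whose reported change was 0.10 or less in size. With array weights, Axin1 1426966_at became 0.0038, Ctnnb1 1450008_a_at 0.010 and Sfrp1 1438620_x_at 0.066. Under the block, Axin1 1426967_at became -0.019, Ctnnb1 1450008_a_at 0.12, Tcf7l2 0.092, Sfrp1 1438620_x_at 0.16, Notum 0.010 and Apcdd1 1418382_at -0.039. Axin2 was -0.0032 and -0.017, and Sfrp1 1448395_at -0.018 and -0.017, after quantile normalization and median centring. Centring shifts all probe sets alike, which by itself turns values this close to 0. Without one array, Axin1 ranged from -0.042 to 0.031 and from -0.019 to 0.21 by probe set, Axin2 from -0.019 to 0.038, Ctnnb1 1450008_a_at from -0.075 to 0.12, Tcf7l2 from -0.20 to 0.092, Notum from -0.045 to 0.010 and Apcdd1 1418382_at from -0.067 to 0.14. Sfrp1 ranged from -0.19 to 0.16 and from -0.19 to 0.27, Tcf7l1 from -0.13 to 0.046 and from -0.092 to 0.24, and Wls from -0.066 to 0.13 and from -0.12 to 0.27. The cause of the other changes was not tested. Over all probe sets, there were 53 calls with array weights, against 210, and leaving out an array gave 15 (day 4 replicate 1) to 165 (day 4 replicate 2), with 32 for day 0 replicate 3 and 142 for day 0 replicate 1. Under the block 401 were called. One probe set per gene gave 255 calls among 8940 genes. At adjusted p thresholds of 0.1 and 0.01 there were 657 and 23.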

Other observations

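Some pathway genes had several probe sets with the same direction, and they are named here after their values were seen. Slc2a1, the glucose transporter gene that beta-catenin maintains in brain vessels, had 3 probe sets, all with both day 4 arrays above all day 0 arrays. Its probe set 1426600_at had 7.69 and 7.55 at day 4, against 7.10, 7.17 and 6.86 at day 0, with a difference of 0.58 ± 0.13 (SE, limma adjusted p = 0.0918). The other Slc2a1 probe sets gave 0.65 and 0.54 (adjusted p = 0.103 and 0.116). Over the alternatives run, the adjusted p of these 3 probe sets ran from 0.067 to 0.26. Csnk1d, a kinase of the casein kinase 1 family that phosphorylates Dishevelled and other pathway proteins, had 5 probe sets with differences of 0.22 to 0.61, and on each the day 4 arrays lay above all day 0 arrays. The adjusted p of Csnk1d was between 0.10 and 0.261, and the value of 1456727_a_at, 0.42, was 0.17 without day 4 replicate 1. The cyclin D1 gene Ccnd1 had 3 probe sets with differences of 0.58, 0.35 and 0.23, again with the groups apart on each; that of 1417420_at, 0.35, was 0.16 without day 4 replicate 1 and 0.54 without day 4 replicate 2. None of these passed the limma threshold, and 18.9% of all probe sets had both day 4 arrays above all day 0 arrays. Probe sets of the same gene read the same RNA on the same arrays, so their agreement is not independent. The share of genes with several probe sets that all lie apart in the same direction was not computed.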
